A study of Mus musculus with 2 samples.

Results

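Cirbp, Rbm3, Rsrp1, Clk1, Clk4, Srsf5, Srsf7 and Luc7l2 are genes of RNA binding and splicing whose products are held to respond to body temperature. They were taken by symbol from the deposited gene rows, where each of the 8 had exactly 1 row among 32285 genes. Nuclei of male mice (C57BL/6J in the methods), 6 to 8 weeks old by the labels, were sequenced one by one in 2 libraries. One was prepared from normal mice and the other from mice killed 12 h after subarachnoid haemorrhage (SAH) by endovascular puncture, and both held pooled tissue of 3 mice from 1 hemisphere, between the medial prefrontal cortex and the centrolateral nucleus of the thalamus. The labels call the control mice normal and the study calls its controls sham, so whether they were operated on is not settled, and the study's methods give an older age range than the labels. Brains and nuclei were handled on ice in both groups, and neither the labels nor the methods give a body temperature. The question was whether the libraries differ in these genes as temperature or handling would predict. With 1 library per condition no test could be run, so the error given with each value covers counting only and not the variation between mice, pools or libraries.

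Splicing removes introns from newly made RNA. SR proteins, named for their stretches of serine and arginine, bind exons and help to place the splicing machinery, and the CDC-like kinases (Clk) phosphorylate those stretches and so set where SR proteins sit and how active they are. These kinases are known to work better at the cooler end of the range of body temperature, which makes splicing follow body temperature. Cirbp and Rbm3 encode the cold-inducible RNA-binding proteins, whose RNA is held to rise with mild cooling and to fall with warming. RNA of Clk1, Clk4 and several SR genes is known to be kept partly in the nucleus with introns retained. The counts hold exonic and intronic reads together, so spliced and intron-retaining forms were not told apart here.

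The genes lie on different chromosomes and differ in length, which bears on the comparison below. In the GENCODE annotation of GRCm38 (the build of the files, mm10), Cirbp lies on the + strand at chr10:80165985-80172786, Rbm3 on the - strand at chrX:8138975-8145880, and Rsrp1 on the + strand at chr4:134923592-134927671. Clk1 lies on the - strand at chr1:58410189-58424066 and Clk4 on the + strand at chr11:51261730-51281766. Srsf5 lies on the + strand at chr12:80945504-80950507, Srsf7 on the - strand at chr17:80200080-80207307, and Luc7l2 on the + strand at chr6:38551334-38609470. Rsrp1 was the shortest, at 4080 bases, and Luc7l2 the longest, at 58137 bases. Antisense or opposite-strand genes overlap Rbm3 (Rbm3os) and Clk4 (BC049762), but these had few UMIs, 1 to 7 for Rbm3os and 0 to 11 for BC049762 in any class of nuclei and library. On the strand of Clk4 lies Gm25082, annotated as misc_RNA, and Gm26699 lies opposite Luc7l2. Neither had a row among the counted genes, so any reads of them could not be counted apart.

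Promoters are shown for Clk4, Srsf5 and Srsf7, which were lower in SAH past the threshold used below in at least 4 of 5 classes of nuclei, and for Cirbp, which was past it in none. Each is the 250 bases before an annotated start on the strand of the gene, from RefSeq on GRCm38.p6, where 6 of the 8 genes had an entry. Capitals mark matches, on either strand, to GGGCGG (GC box), CCAAT, TGACGTCA (cAMP response element), GAANNTTC (heat shock element core) or CACGTG (E-box).
Cirbp, chr10:80167589-80167838, + strand: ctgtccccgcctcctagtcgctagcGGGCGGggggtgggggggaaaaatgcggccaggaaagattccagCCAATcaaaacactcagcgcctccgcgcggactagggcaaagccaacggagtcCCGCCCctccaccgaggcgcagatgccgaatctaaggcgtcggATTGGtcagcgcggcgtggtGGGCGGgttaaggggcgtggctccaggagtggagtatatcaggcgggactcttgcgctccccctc
Clk4, chr11:51262864-51263113, + strand: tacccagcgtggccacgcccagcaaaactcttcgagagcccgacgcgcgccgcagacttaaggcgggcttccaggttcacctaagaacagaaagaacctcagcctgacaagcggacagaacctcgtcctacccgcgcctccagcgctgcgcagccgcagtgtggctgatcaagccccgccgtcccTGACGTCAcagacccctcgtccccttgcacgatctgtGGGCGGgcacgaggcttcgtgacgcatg
Srsf5, chr12:80945249-80945498, + strand: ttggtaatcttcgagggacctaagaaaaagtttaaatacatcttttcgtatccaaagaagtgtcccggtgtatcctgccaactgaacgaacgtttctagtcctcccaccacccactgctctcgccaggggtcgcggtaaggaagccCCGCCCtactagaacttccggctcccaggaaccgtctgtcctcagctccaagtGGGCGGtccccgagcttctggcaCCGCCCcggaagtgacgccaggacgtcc
Srsf7, chr17:80207306-80207555, - strand: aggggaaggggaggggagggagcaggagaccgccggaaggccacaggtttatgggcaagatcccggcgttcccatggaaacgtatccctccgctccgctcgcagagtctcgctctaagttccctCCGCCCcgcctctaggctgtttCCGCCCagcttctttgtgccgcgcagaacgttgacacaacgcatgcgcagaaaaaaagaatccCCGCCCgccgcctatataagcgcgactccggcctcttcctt

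GC boxes stood in all 4 of these sequences, 3 in Cirbp, 1 in Clk4, 3 in Srsf5 and 3 in Srsf7, against 32.7% of 32851 promoters of this length with at least 1. Cirbp also held 2 CCAAT matches, which 33.8% of promoters had. RefSeq gives Cirbp a second start, and the 250 bases before it (chr10:80167921-80168170, not printed) held 4 GC boxes and 0 CCAAT matches. Rsrp1 and Luc7l2, also past the threshold in no class and not printed, held 2 and 0 GC boxes and 1 CCAAT match each. Clk4 held the only cAMP response element, found in 1.55% of promoters. The heat shock element core (6.69% of promoters) and the E-box (6.02%) were not matched in these 4. These matches describe the letters of the window and no binding was measured.

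The normal library held 12204 nuclei and 114970719 unique molecular identifiers (UMIs), and the SAH library 18209 nuclei and 172604358 UMIs, with medians of 7252.5 and 8151 per nucleus. Nuclei were placed in a class by their UMIs of marker genes, and 5 classes had at least 50 nuclei in both libraries: excitatory-like (3473 normal, 4076 SAH), thalamic-like (409 and 827), inhibitory-like (2058 and 2298), oligodendrocyte-like (1904 and 4085) and microglia-like (1107 and 1512). A further 25.5% of normal and 28.9% of SAH nuclei were left without a class. A median of 5 or more markers of its own class was raised per nucleus in every class. The libraries had 78 cell barcodes in common. Oligodendrocyte-like and microglia-like nuclei of the libraries stood apart when clustered, since 85.9% of the normal oligodendrocyte-like nuclei lay in cluster 3 and 46.1% and 27.1% of those of SAH in clusters 1 and 9. Of microglia-like nuclei, 89.0% of the normal library lay in cluster 10 and 80.3% of the SAH library in cluster 8. The summed level of each glial class's own markers also differed, from 22601 CPM in normal to 12906 CPM in SAH for oligodendrocyte-like and from 15621 to 8687 CPM for microglia-like nuclei.

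Levels are given as CPM, the UMIs of a gene scaled to a common total of all UMIs of the class, and ratios are log2 of the SAH level over the normal level, with 95% intervals. Over the 5 classes, Clk4 and Srsf7 were lower in SAH by the most, Rbm3, Srsf5 and Clk1 were lower by less, Luc7l2 differed little, and Cirbp and Rsrp1 did not move in one direction. No gene of the list was higher in SAH by a log2 ratio of 0.5 or more in any class.

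**Figure D1:**
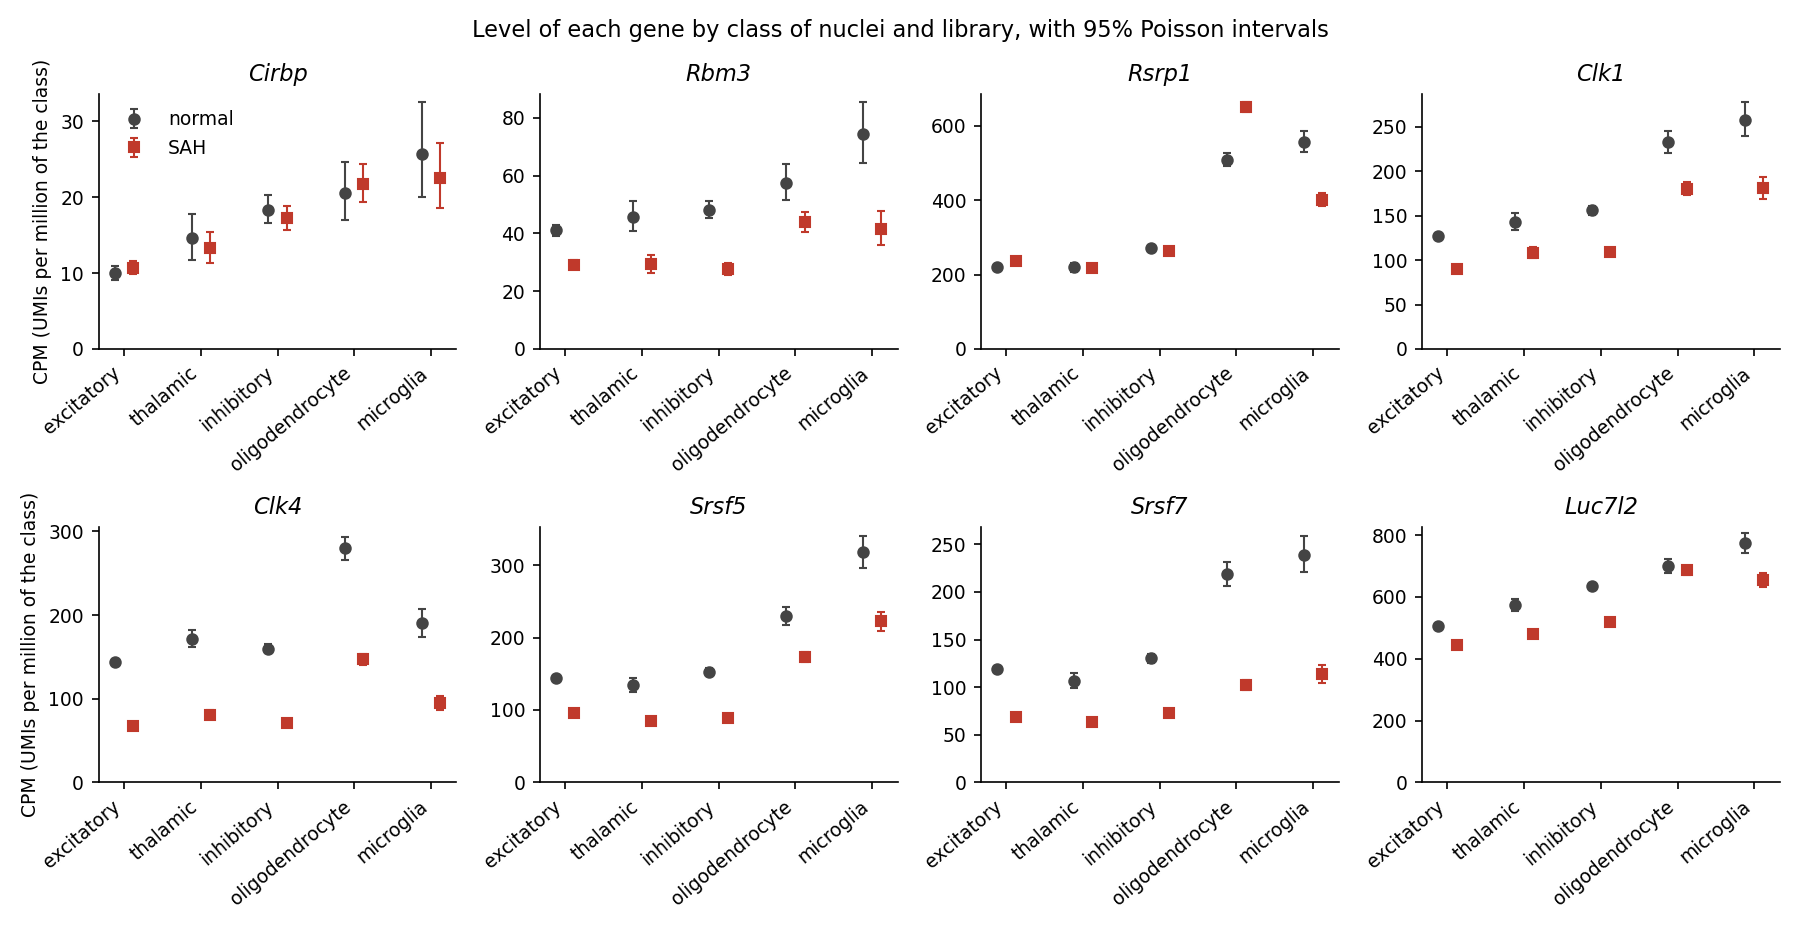
Levels of the 8 genes in CPM (linear axes from 0, a scale of its own per gene) by class of nuclei, with normal as circles, SAH as squares and 95% Poisson intervals as bars. Clk4, Srsf7, Rbm3, Srsf5 and Clk1 sit lower in SAH in every class, the Cirbp intervals of the libraries overlap in every class, and Rsrp1 is higher in SAH in oligodendrocyte-like and lower in microglia-like nuclei.

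Cirbp, which binds and stabilises RNA and is the gene named for its response to cold, had levels of 9.97 CPM in normal and 10.7 CPM in SAH in excitatory-like nuclei. In thalamic-like nuclei it had 14.6 and 13.3 CPM and in inhibitory-like nuclei 18.4 and 17.2 CPM. Oligodendrocyte-like nuclei had 20.5 and 21.8 CPM and microglia-like nuclei 25.7 and 22.5 CPM. The libraries overlapped within their intervals in every class. The log2 ratio lay between -0.19 in microglia-like and 0.10 in excitatory-like nuclei, and all 5 intervals held 0. The interval was narrowest in excitatory-like nuclei, from -0.08 to 0.28, and widest in microglia-like nuclei, from -0.63 to 0.26, where the counts were 69 and 112 UMIs. At this depth a difference of the size seen for Rbm3 in microglia-like nuclei lay outside the interval of Cirbp there, but a smaller one could not be told from none. The sign of the ratio depended on the scaling, and set against genes of like length it was above 0 in all 5 classes.

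Rbm3, the other cold-inducible RNA-binding protein, which supports translation and synapses, was lower in SAH in every class. Its level was 41.1 CPM in normal and 29.2 CPM in SAH in excitatory-like nuclei, 45.8 and 29.3 CPM in thalamic-like nuclei, and 48.3 and 27.6 CPM in inhibitory-like nuclei. Glial levels were 57.6 and 43.9 CPM in oligodendrocyte-like and 74.4 and 41.6 CPM in microglia-like nuclei. No interval of one library reached that of the other. The log2 ratio was lowest in microglia-like (-0.84, interval -1.13 to -0.55) and inhibitory-like nuclei (-0.81, -0.95 to -0.67) and nearest 0 in oligodendrocyte-like nuclei (-0.39, -0.59 to -0.19). Against genes of like length, the oligodendrocyte-like value was 0.04 and so turned in sign. With each nucleus thinned to 1000 UMIs, Rbm3 was at -1.01 in thalamic-like and -1.31 in inhibitory-like nuclei, where 27 and 28 and 99 and 45 nuclei still had a UMI. In inhibitory-like nuclei Cirbp was at a log2 ratio of -0.09 and Rbm3 at -0.81, and in excitatory-like nuclei at 0.10 and -0.49. The intervals of the pair did not overlap in these classes. They overlapped in thalamic-like, oligodendrocyte-like and microglia-like nuclei.

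Rsrp1 encodes a small protein rich in arginine and serine. It was the gene whose direction depended on the class. In oligodendrocyte-like nuclei it went from 509 CPM in the normal library to 650.5 CPM after haemorrhage (log2 ratio 0.35, 0.29 to 0.41). In microglia-like nuclei it was 557 and 400.5 CPM, with a log2 ratio of -0.48 (-0.57 to -0.38). The difference between these classes was 0.83 on the log2 scale, with an interval of 0.71 to 0.94 from counting alone, and was not tested over mice. In neurons the levels were close: 222 and 237 CPM in excitatory-like nuclei (log2 ratio 0.10, 0.06 to 0.14), 219.6 and 217 CPM in thalamic-like nuclei (-0.02, -0.11 to 0.08), and 271 and 263 CPM in inhibitory-like nuclei (-0.04, -0.09 to 0.01). Thinned to 1000 UMIs per nucleus, the thalamic-like value was -0.33. Both glial values compare different clusters, as given above. In cluster 28, the 1 cluster named oligodendrocyte-like with at least 50 nuclei of both libraries, the log2 ratio of Rsrp1 was -0.01 (-0.25 to 0.22). In clusters 12 and 20, which were left unnamed because markers of neurons were raised in them beside those of oligodendrocytes and of microglia, it was 0.15 (0.02 to 0.27) and 0.08 (-0.10 to 0.26). These 2 clusters had medians of 8534 and 8070 UMIs per nucleus and markers of neurons and glia both raised, so their values cannot show a glial direction. The oligodendrocyte-like direction of Rsrp1 was not seen at that size in cluster 28. No cluster named microglia-like held at least 50 nuclei of both libraries, so the microglia-like direction could not be checked within a cluster. Set against genes of like length, the microglia-like value was 0.11. Clusters 12 and 20 were also part of the glial classes, and more so in SAH. Cluster 12 held 6.72% of normal and 13.29% of SAH oligodendrocyte-like nuclei, and cluster 20 held 6.78% and 13.03% of microglia-like nuclei. The glial levels of every gene include these nuclei, and their weight was not tested. With classes taken from clusters, which leaves both out, Rsrp1 was at 0.42 in oligodendrocyte-like and -0.55 in microglia-like nuclei.

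Clk1, a kinase of SR proteins, was lower in SAH in every class. It had 127 CPM in normal and 90.1 CPM in SAH in excitatory-like nuclei, 143 and 108 CPM in thalamic-like nuclei, and 156 and 109 CPM in inhibitory-like nuclei. Oligodendrocyte-like nuclei had 232 and 180.1 CPM, and microglia-like nuclei 258 and 181 CPM. The libraries did not overlap within their intervals in any class. Its log2 ratio lay between -0.51 in microglia-like and inhibitory-like nuclei and -0.37 in oligodendrocyte-like nuclei.

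Clk4, the close relative of Clk1, was lower in SAH in every class. Its level was 144 CPM in normal and 67.5 CPM in SAH in excitatory-like nuclei, 171 and 81.2 CPM in thalamic-like nuclei, and 160.1 and 71.4 CPM in inhibitory-like nuclei. The glial values were 279.8 and 147 CPM in oligodendrocyte-like and 191 and 94.7 CPM in microglia-like nuclei. No interval of one library came near that of the other. The log2 ratios were -1.09 (-1.15 to -1.03) in excitatory-like, -1.08 (-1.20 to -0.95) in thalamic-like, -1.16 (-1.25 to -1.08) in inhibitory-like, -0.93 (-1.02 to -0.83) in oligodendrocyte-like and -1.01 (-1.19 to -0.83) in microglia-like nuclei. The excitatory-like and inhibitory-like intervals did not overlap that of oligodendrocyte-like nuclei, and the inhibitory-like value was below it by a log2 difference of -0.24 (-0.36 to -0.11). Among all genes with at least 50 UMIs in the class these ratios stood at percentiles 3.72, 2.81, 2.31, 7.22 and 5.75, in the same order. Both Clk kinases were lower in each class, and Clk4 by more than Clk1 in each. In clusters 28, 12 and 20, shared by the libraries, Clk4 was at -1.17, -1.01 and -0.93. Clusters 12 and 20 also had markers of neurons raised.

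Srsf5, an SR protein held to follow temperature cycles, was lower in SAH in every class. It had 145 CPM in normal and 95.8 CPM in SAH in excitatory-like nuclei, 134 and 84.6 CPM in thalamic-like nuclei, and 153 and 89.0 CPM in inhibitory-like nuclei. Glial levels were higher, 229.8 and 173 CPM in oligodendrocyte-like and 317 and 222 CPM in microglia-like nuclei. The intervals of the libraries did not overlap in any class. Among the classes the log2 ratio was lowest in inhibitory-like (-0.78, -0.86 to -0.71) and nearest 0 in oligodendrocyte-like nuclei (-0.41, -0.50 to -0.31). The microglia-like value (-0.51) and the excitatory-like value (-0.59) differed by an amount whose interval held 0 (-0.22 to 0.06).

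Srsf7, an SR protein with a zinc knuckle that also takes part in RNA export and 3' end choice, was lower in SAH in every class. It had 119 CPM in normal and 69.0 CPM in SAH in excitatory-like nuclei, 107 and 63.5 CPM in thalamic-like nuclei, and 130.1 and 72.6 CPM in inhibitory-like nuclei. Oligodendrocyte-like nuclei had 219 and 102 CPM and microglia-like nuclei 239 and 114 CPM, and no interval of one library reached that of the other. Its log2 ratio was -1.10 (-1.21 to -0.99) in oligodendrocyte-like and -1.07 (-1.24 to -0.91) in microglia-like nuclei, and -0.79 (-0.85 to -0.73), -0.75 (-0.90 to -0.60) and -0.84 (-0.93 to -0.76) in the excitatory-like, thalamic-like and inhibitory-like classes. The intervals of oligodendrocyte-like and excitatory-like nuclei did not overlap, and the difference between these classes was not tested over mice. Both glial values compare different clusters, and in the shared clusters 28, 12 and 20 Srsf7 lay between -1.18 and -0.88. Of these, 12 and 20 also had markers of neurons raised. Neuronal clusters reached as low, with Srsf7 at -1.35 (-1.59 to -1.11) in cluster 19 and -1.15 (-1.44 to -0.87) in cluster 23, both excitatory-like, and at -1.11 (-1.36 to -0.86) in cluster 18, which is inhibitory-like.

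Luc7l2, which joins the U1 particle at the 5' splice site, was the longest gene and differed least among those that were lower. It had 507 CPM in normal and 444 CPM in SAH in excitatory-like nuclei, 574 and 482 CPM in thalamic-like nuclei, and 634 and 518 CPM in inhibitory-like nuclei. Oligodendrocyte-like nuclei had 700.1 and 686 CPM, and microglia-like nuclei 774 and 656 CPM. The libraries overlapped within their intervals only in oligodendrocyte-like nuclei. Its log2 ratio lay between -0.29 in inhibitory-like and -0.03 in oligodendrocyte-like nuclei, where the interval (-0.08 to 0.02) held 0. In excitatory-like nuclei the value of -0.19 stood at percentile 44.6 of all genes.

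**Figure D2:**
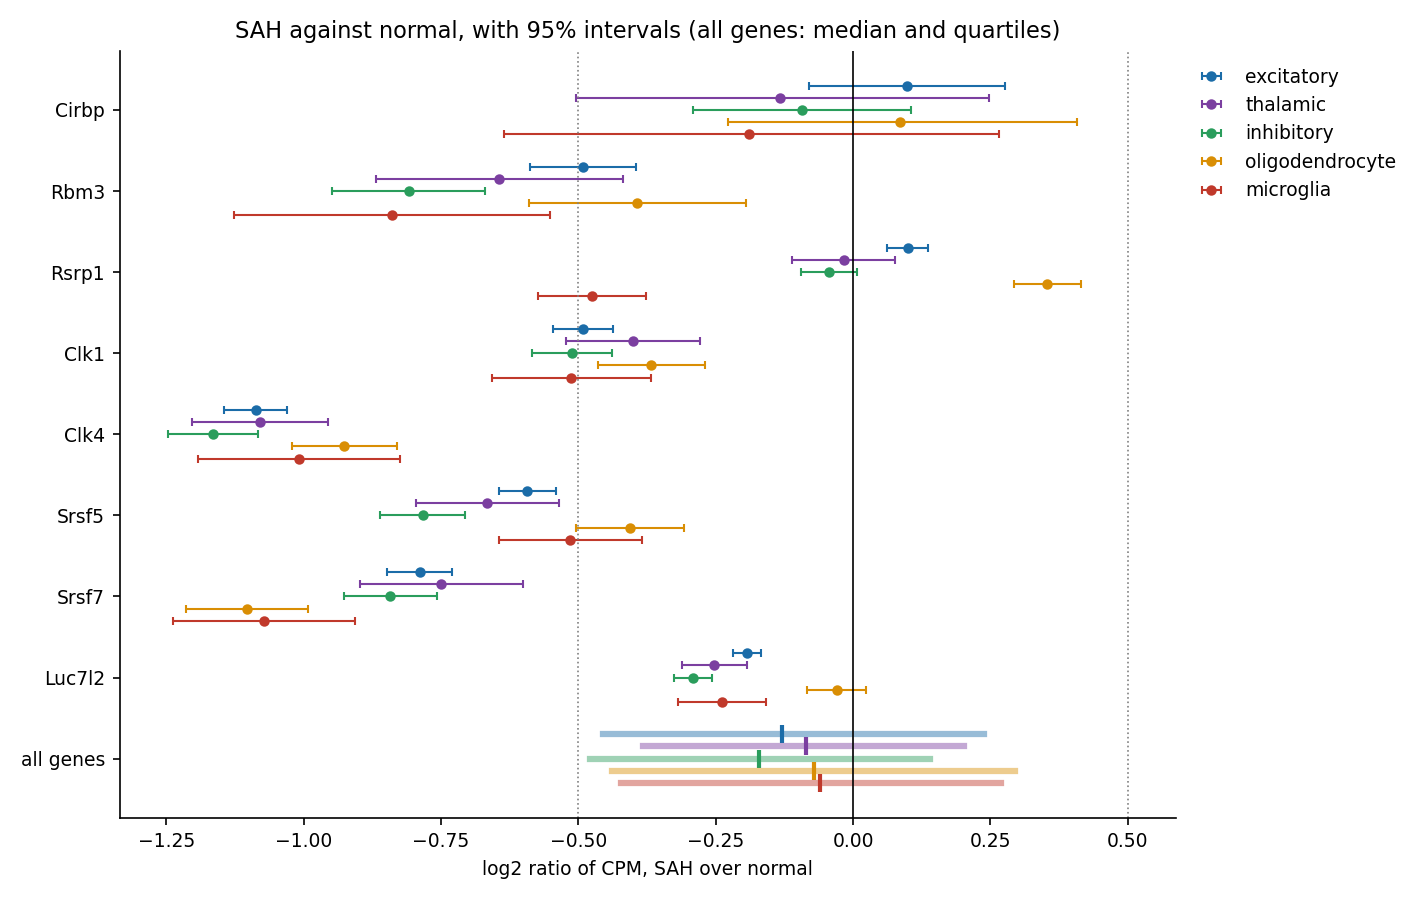
Log2 ratio of CPM, SAH over normal, for each gene (rows) and class (colours), with 95% counting intervals, and below them the median and quartiles of all genes with at least 50 UMIs in the class. Dotted lines mark 0.5 in either direction, and Clk4 and Srsf7 lie beyond the lower one in all 5 classes while no gene lies beyond the upper one. The labels leave out the suffix -like.

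Counted at a log2 ratio of 0.5 or more in size, 3 of 8 genes were lower in excitatory-like nuclei (Clk4, Srsf5 and Srsf7), against 22.2% of all 16977 genes with at least 50 UMIs, and 0 were higher, against 16.3%. In thalamic-like nuclei 4 were lower, with Rbm3 added, against 18.2% of 12725 genes, and 0 higher, against 12.4%. In inhibitory-like nuclei 5 were lower, with Rbm3 and Clk1 added, against 23.5% of 15454 genes, and 0 higher, against 12.0%. In oligodendrocyte-like nuclei 2 were lower (Clk4 and Srsf7), against 21.7% of 13247 genes, and 0 higher, against 16.3%. In microglia-like nuclei the 5 that were lower were those of inhibitory-like nuclei, against 21.0% of 11599 genes, and 0 were higher, against 14.3%. The number lower in microglia-like nuclei was 3 when the ratios were centred on the median of all genes, a scale on which the share of all genes was not counted. All 8 genes had at least 50 UMIs in every class. The members just inside the threshold were Clk1 in inhibitory-like (-0.51) and microglia-like nuclei (-0.51) and Srsf5 in microglia-like nuclei (-0.51), and those just outside it were Rbm3 (-0.49) and Clk1 (-0.49) in excitatory-like nuclei. The median of the 8 ratios was -0.49, -0.52, -0.65, -0.38 and -0.51 in excitatory-like, thalamic-like, inhibitory-like, oligodendrocyte-like and microglia-like nuclei, and that of all genes -0.13, -0.09, -0.17, -0.07 and -0.06.

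Gene length moved with the ratio across all genes. In excitatory-like nuclei the median log2 ratio was -0.36 for genes up to 5000 bases and 0.06 for those over 100000 bases, and in oligodendrocyte-like nuclei it was -0.59 and 0.21. Of the list, 5 genes (Cirbp, Rbm3, Rsrp1, Srsf5 and Srsf7) are under 10000 bases. The ratios were also centred on the 500 genes closest in length, and on that scale Clk4 lay between -0.94 in excitatory-like and -0.75 in oligodendrocyte-like nuclei. Srsf7 ranged from -0.70 (oligodendrocyte-like) to -0.36 (thalamic-like). Rbm3 ranged from -0.40 to 0.04, Srsf5 from -0.33 to 0.06, Clk1 from -0.27 to -0.11 and Luc7l2 from -0.26 to -0.08. Cirbp lay above genes of its length in every class, between 0.23 and 0.49, and so did Rsrp1, from 0.11 in microglia-like to 0.85 in oligodendrocyte-like nuclei. On this scale the number lower by 0.5 or more was 1 of 8 in excitatory-like, thalamic-like and inhibitory-like nuclei (Clk4), and 2 of 8 in oligodendrocyte-like and microglia-like nuclei (Clk4 and Srsf7). Rsrp1 was then higher by 0.5 or more in oligodendrocyte-like nuclei. The share of all genes past 0.5 was not counted on this scale, so these numbers have no background beside them.

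**Figure D3:**
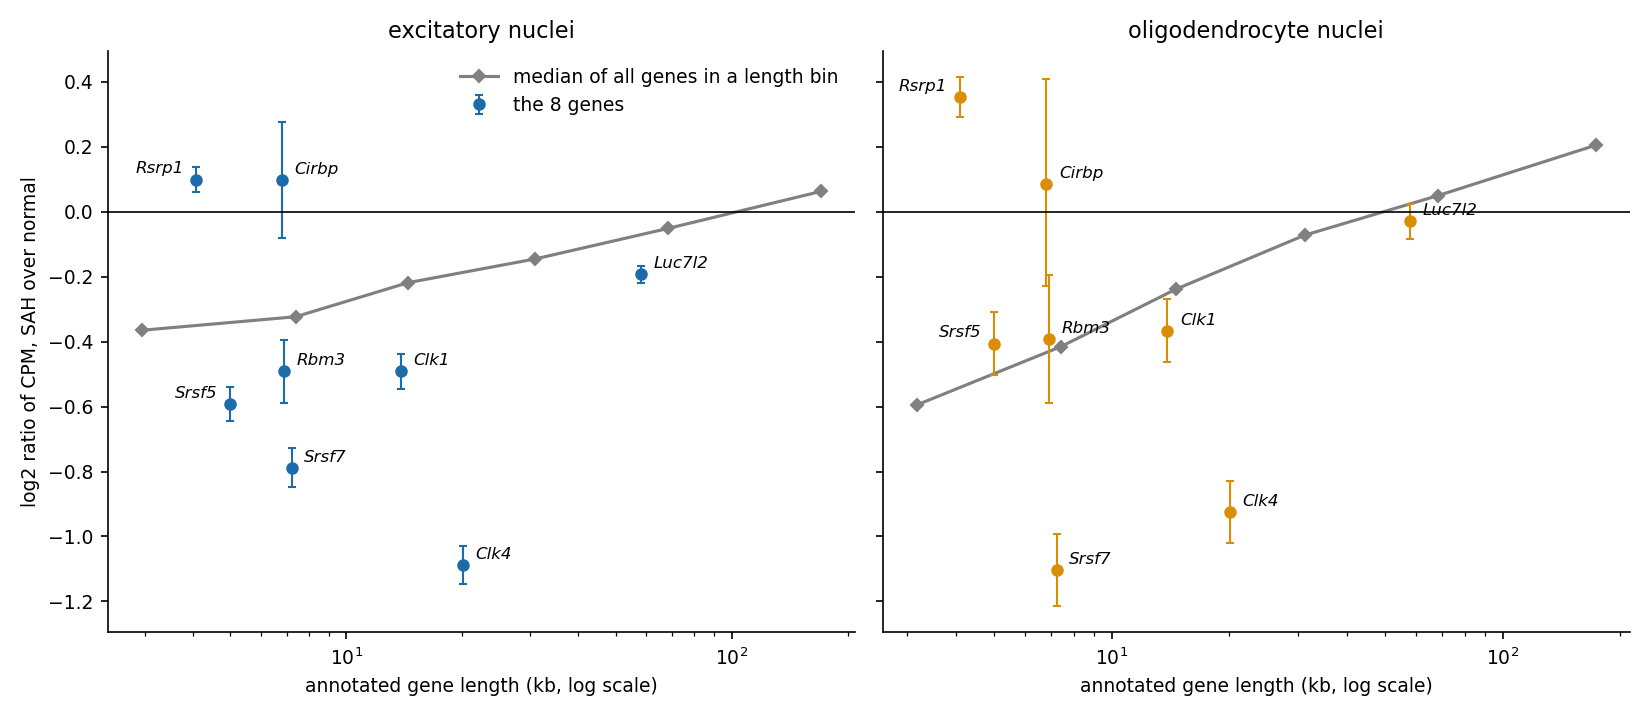
Log2 ratio of CPM, SAH over normal, against annotated gene length in kb (log axis) in excitatory-like and oligodendrocyte-like nuclei, with the 8 genes as labelled points with 95% counting intervals and the grey line as the median of all genes in 6 length bins. Clk4 and Srsf7 lie below the line in both panels, Cirbp and Rsrp1 above it, and Srsf5 and Rbm3 lie near it in oligodendrocyte-like nuclei.

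Other measures of the libraries moved with the condition in the same nuclei. Malat1, a long noncoding RNA kept in the nucleus, took 6.51% of UMIs in normal and 4.18% in SAH excitatory-like nuclei, and 9.65% and 5.97% in oligodendrocyte-like nuclei. Ribosomal protein genes took 0.129% and 0.0718% in excitatory-like and 0.350% and 0.163% in oligodendrocyte-like nuclei. The median UMI count per nucleus was higher in SAH in all 5 classes, 12627.5 against 11148 in excitatory-like and 2303 against 1986 in oligodendrocyte-like nuclei. With mitochondrial genes and Malat1 left out of the total, Clk4 was at -1.12 in excitatory-like and -0.98 in oligodendrocyte-like nuclei. Markers of other cell types were present in the glial classes of both libraries. In oligodendrocyte-like nuclei the 10 excitatory markers summed to 533 CPM in normal and 487 CPM in SAH and the 12 inhibitory markers to 2532 and 2718 CPM, and none of either list was at 0. In microglia-like nuclei these sums were 712 and 652 CPM and 1279 and 940.1 CPM, again with none at 0, and the 14 oligodendrocyte markers summed to 415 and 259.8 CPM. The part of these markers, of ribosomal protein genes and of depth in the values of the 8 genes was not tested.

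The nuclei were also clustered without the 8 genes, and 28 of 38 clusters had at least 50 nuclei in both libraries. Clk4 was lower in SAH in 28 of 28 clusters, with a log2 ratio between -1.54 and -0.63 (median -1.13), and its interval lay wholly below 0 in 27. Clk1 was lower in 28 of 28 (median -0.51), and so were Srsf7 (median -0.79) and Srsf5 (median -0.62), with intervals below 0 in 26, 25 and 27 clusters. Rbm3 was lower in all 26 clusters in which it had at least 50 UMIs, between -1.49 and -0.18. Luc7l2 was lower in 27 of 28, with a median of -0.25. The share of all genes that were lower in each cluster was not counted. In every class the median of all genes was itself below 0, from -0.17 in inhibitory-like to -0.06 in microglia-like nuclei. Luc7l2 stood between percentile 35.0 of all genes in thalamic-like and 53.3 in oligodendrocyte-like nuclei. Cirbp was lower in 6 of the 17 clusters where it could be counted, between -0.73 and 0.66, and its interval lay below 0 in 2 and above 0 in none. The 2 were cluster 0 (-0.21, -0.39 to -0.02) and cluster 13 (-0.73, -1.16 to -0.30). Of inhibitory-like nuclei, cluster 0 held 41.4% in normal and 36.0% in SAH, and cluster 13 held 14.3% and 11.5%. Rsrp1 stayed between -0.19 and 0.34, with its interval above 0 in 7 clusters and below 0 in 3. The clusters share their 2 libraries and are no replicates of the condition.

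**Figure D4:**
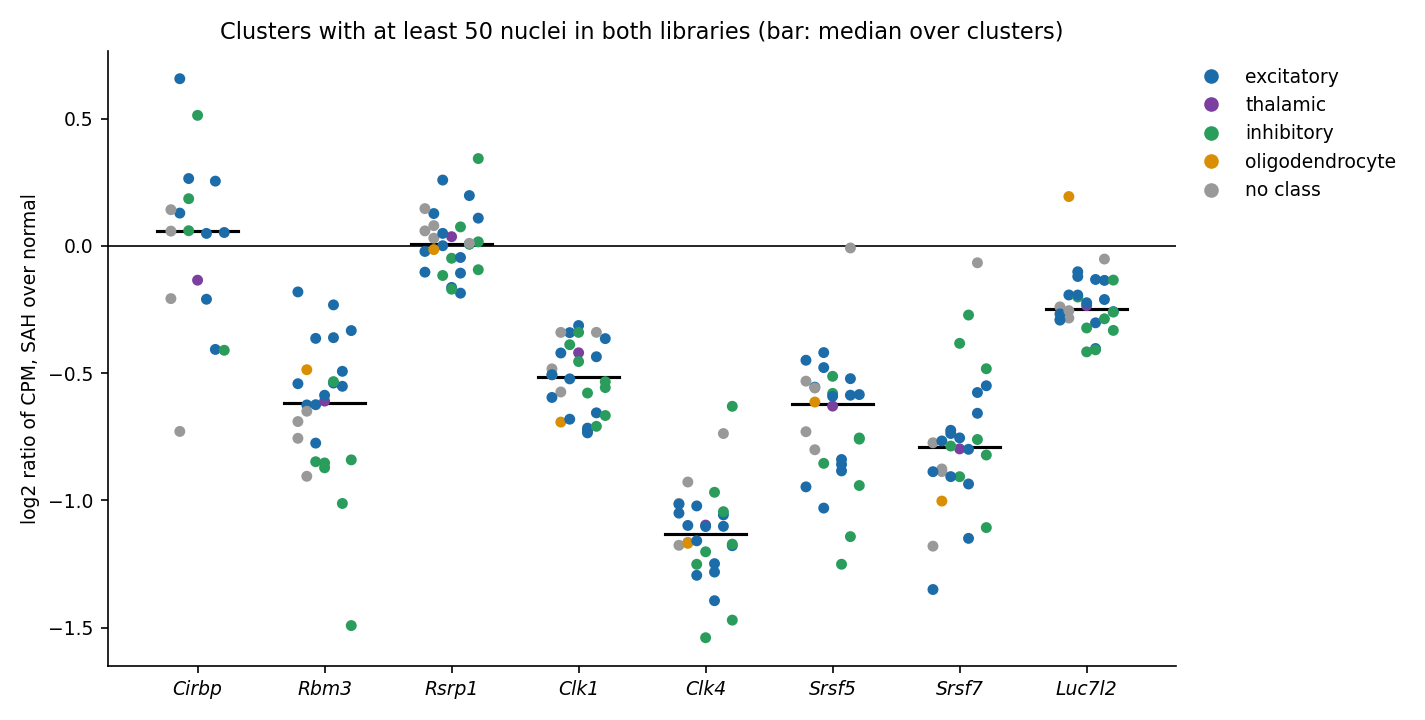
Log2 ratio of CPM, SAH over normal, of each gene in clusters of nuclei with at least 50 nuclei per library and 50 UMIs of the gene, coloured by class, with a bar at the median over clusters. All 28 values of Clk4, Clk1, Srsf5 and Srsf7 and all 26 of Rbm3 are below 0, while Cirbp and Rsrp1 spread to both sides. The share of all genes below 0 was not counted by cluster.

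To give the share of nuclei with a UMI, each nucleus was thinned to 1000 UMIs to set the libraries at equal depth, which left out 0 to 254 nuclei per class and library. For Clk4 the share was 75.1% in normal and 56.9% in SAH excitatory-like nuclei before thinning, and 13.1% and 6.08% after it. Among oligodendrocyte-like nuclei the thinned share of Clk4 was 26.9% and 14.6%, and in microglia-like nuclei 19.5% and 9.96%. For Srsf7 it was 23.3% and 11.1% in oligodendrocyte-like nuclei, where the unthinned share was 43.3% and 27.6%. For Rsrp1 the thinned share was 43.2% and 51.1% in oligodendrocyte-like nuclei and 53.0% and 40.2% in microglia-like nuclei, before thinning 68.7% and 79.4%, and 67.1% and 64.9%. For Cirbp it was 1.33% and 1.23% in excitatory-like nuclei, with exact binomial intervals of 0.972% to 1.76% and 0.912% to 1.61%, and 12.0% and 13.3% before thinning. For Clk4, Srsf7 and Rsrp1 these thinned shares lay in the same direction as the levels, and for Cirbp the thinned intervals overlapped. All classes are held to use these genes, so no class could serve to measure the share that free RNA gives.

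Within a library, the levels had a common order over the classes. In the normal library, microglia-like nuclei had the highest level for 7 of the 8 genes and oligodendrocyte-like nuclei for Clk4, and excitatory-like or thalamic-like nuclei had the lowest. Microglia-like and oligodendrocyte-like nuclei, neighbours at the top of this order, overlapped within their intervals for Cirbp, Clk1 and Srsf7, and did not for the other 5 genes. In the SAH library oligodendrocyte-like nuclei came first for Rbm3, Rsrp1, Clk4 and Luc7l2, and for Rbm3 and Luc7l2 their interval overlapped that of microglia-like nuclei. Glial nuclei were shallower, with medians of 1459 to 2303 UMIs against 8881 to 14382 in neuronal classes, and CPM is a share of all UMIs of a class and not an amount per nucleus.

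The genes closest to each member over the 10 sums of class and library, by Pearson correlation of log2(CPM + 1) among 10552 genes, were of varied kinds. They were Vps35l, Cep350 and Nipsnap3b for Cirbp (0.989 to 0.976), Uqcc2, Acrbp and Gpat4 for Rbm3 (0.987 to 0.983), and Zfp740, Slc15a4 and Mt1 for Rsrp1 (0.985 to 0.981). For Clk1 they were Slc39a7, Mrpl17 and Gpr108 (0.996 to 0.989), and for Clk4 Cyhr1, Kpna6 and Pigq (0.980 to 0.971). For Srsf5 they were Ubald2, Dpp3 and Foxj2 (0.994 to 0.993), for Srsf7 Uqcr10, Rpl41 and Rpl29 (0.991 to 0.990), and for Luc7l2 Ddb1, Ints8 and Txndc12 (0.990 to 0.986). Among the 8, Clk1 and Luc7l2 were most alike (0.973), then Rbm3 and Srsf7 (0.959), and Cirbp and Clk4 least (0.422). The 10 points share 2 libraries and the depth of 5 classes, and the values are a description.

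The other genes of the same machinery were counted by list, and those named are from the lowest and highest pair with at least 200 UMIs in the class. Over all genes, 22.2%, 18.2%, 23.5%, 21.7% and 21.0% were lower and 16.3%, 12.4%, 12.0%, 16.3% and 14.3% higher in excitatory-like, thalamic-like, inhibitory-like, oligodendrocyte-like and microglia-like nuclei, and the list counts are to be read against these shares. Of 25 other SR and SR-like genes with at least 50 UMIs in every class, 6 were lower and 0 higher in excitatory-like nuclei, with a median log2 ratio of -0.35, and 5 lower and 0 higher in oligodendrocyte-like nuclei, with a median of -0.25. In excitatory-like nuclei the lowest were Srsf9 (-0.86) and Srsf2 (-0.81), both SR proteins, and the highest Rsrc1 (0.35) and Srsf12 (0.00). In oligodendrocyte-like nuclei the same pair was lowest, Srsf2 (-0.98) and Srsf9 (-0.86), and Rsrc1 (0.32) and Srsf4 (0.29) were highest. Thalamic-like, inhibitory-like and microglia-like nuclei had 6, 9 and 5 of 25 lower and 0, 0 and 2 higher. The shares lower were near those of all genes in all classes but the inhibitory-like, and against genes of like length the medians lay between -0.18 and -0.06. The value of Srsf7 in oligodendrocyte-like nuclei (-1.10) was below that of Srsf2, with overlapping intervals (-1.21 to -0.99 and -1.08 to -0.87), and in excitatory-like nuclei (-0.79) it was near those of Srsf2 and Srsf9.

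Of 15 other kinases and phosphatases of SR proteins, 7 were lower and 0 higher in excitatory-like nuclei, where 22.2% of all genes were lower, led by the relatives of Clk1 and Clk4, Clk3 (-0.95) and Clk2 (-0.85), while Hipk2 (0.14) and Dyrk1a (0.03) were highest. In oligodendrocyte-like nuclei, with 21.7% of all genes lower, 6 were lower and 1 higher, with Srpk3 (-1.68), a kinase of SR proteins, and Prpf4b (-0.86) lowest, and Hipk1 (0.93) and Dyrk1a (0.36) highest. All 4 Clk genes were thus below 0 in excitatory-like nuclei, with Clk1 (-0.49) nearest 0. In thalamic-like, inhibitory-like and microglia-like nuclei 5 of 14, 7 of 15 and 5 of 14 were lower and 0 higher, against 18.2%, 23.5% and 21.0% of all genes lower. The medians against genes of like length lay between -0.26 and -0.11.

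Of 15 genes of the U1 particle and the 5' splice site, the group of Luc7l2, 4 were lower and 0 higher in excitatory-like nuclei (median -0.28) and 3 lower and 0 higher in oligodendrocyte-like nuclei (median -0.39). Snrpa, a U1 protein (-0.92), and Ddx5, an RNA helicase (-0.59), were lowest in excitatory-like nuclei, and Nol3 (0.07), better known as an inhibitor of cell death, was highest. In oligodendrocyte-like nuclei Ddx5 (-0.72) and Ddx23 (-0.64) were lowest, and Luc7l, a relative of Luc7l2, was at 0.04. In thalamic-like, inhibitory-like and microglia-like nuclei 2 of 15, 3 of 15 and 3 of 14 were lower, and 1, 0 and 0 higher. These counts were near or below the shares of all genes (22.2% lower in excitatory-like and 21.7% in oligodendrocyte-like nuclei), and against genes of like length the medians lay between -0.23 and -0.08. Of 38 other RNA-binding genes of the RRM and hnRNP families, the wider group of Cirbp and Rbm3, 8 were lower and 0 higher in excitatory-like nuclei (median -0.31), and 6 lower and 1 higher in oligodendrocyte-like nuclei (median -0.24). Ptbp1 (-0.86) and Hnrnpdl (-0.85) were lowest in excitatory-like nuclei and Ptbp2 (0.38) and Rbm4b (0.33) highest, and in oligodendrocyte-like nuclei U2af1 (-0.83) and Hnrnpdl (-0.71) were lowest and Rbm4b (0.50) and Ptbp2 (0.30) highest. In thalamic-like, inhibitory-like and microglia-like nuclei 9 of 37, 10 of 38 and 4 of 37 were lower and 0 higher. The counts of this family were again near or below the shares of all genes, with medians between -0.13 and 0.02 against genes of like length.

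A further 3 lists bear on temperature and handling. Besides the members, 8 genes were listed from general knowledge as rising in mild cold, which was not checked gene by gene. Of these, 6 to 8 per class had at least 50 UMIs. Their median log2 ratio lay between -0.12 in excitatory-like and 0.09 in oligodendrocyte-like nuclei, and 1 was lower in each of the 5 classes, against 18.2% to 23.5% of all genes. The medians against genes of like length lay between -0.02 and 0.10. In excitatory-like nuclei Per2, a clock gene, was lowest (-1.34), then Uhrf2 (-0.23), and Ppargc1a, a coactivator of mitochondrial genes, was highest (0.50, just under the threshold), then Pik3r1 (0.10). In oligodendrocyte-like nuclei Per2 (-0.62) and Rtn3 (-0.14) were lowest, and Ppargc1a (0.57) and Cry2 (0.22) highest. In microglia-like nuclei 2 were higher, Ucp2 (0.86) and Pik3r1 (0.59), named there after their values were seen. The number higher was 1 in oligodendrocyte-like nuclei and 0 in the 3 neuronal classes.

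Of the heat shock factor targets, chaperone genes whose RNA is held to rise with heat, 12 of 25 were lower and 3 higher in excitatory-like nuclei, against 22.2% and 16.3% of all genes, and 17 of 24 lower and 0 higher in oligodendrocyte-like nuclei, against 21.7% and 16.3%. The 3 that were higher in excitatory-like nuclei were Hspa1b (22 and 191 UMIs in normal and SAH, log2 ratio 2.81), Hspa1a (16 and 98 UMIs, 2.31) and Hspb1 (1 and 50 UMIs, 5.34, interval 2.79 to 10.7), of which the last 2 were named after their values were seen. Ubb (-1.22) and Hsp90ab1 (-1.17) were lowest there, and Cacybp (0.08) was next to Hspa1b among those with at least 200 UMIs. In oligodendrocyte-like nuclei Hsp90ab1 (-1.96) and Ubb (-1.90) were lowest and Hsf1 (0.27) and Dnajb4 (-0.10) highest. In thalamic-like, inhibitory-like and microglia-like nuclei 11 of 21, 17 of 23 and 8 of 22 were lower, against 18.2%, 23.5% and 21.0% of all genes, and 0 higher. The median of the list was -0.48, -0.55, -0.87, -0.74 and -0.37 in excitatory-like, thalamic-like, inhibitory-like, oligodendrocyte-like and microglia-like nuclei. Against genes of like length it was -0.19, -0.31, -0.46, -0.56 and -0.14, in the same order.

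Of the immediate early genes, which rise within minutes of activity or handling, 19 of 22 were lower and 1 higher in excitatory-like nuclei, against 22.2% and 16.3% of all genes, with a median of -1.24. Fos (282 and 51 UMIs, -2.77) and Arc (825 and 175 UMIs, -2.54) were lowest, and Klf6 (-0.24) and Fosl2 (-0.65) highest among those with at least 200 UMIs. In oligodendrocyte-like nuclei 9 of 15 were lower and 2 higher, against 21.7% and 16.3% of all genes, and of those with at least 200 UMIs Jun (-0.53) and Jund (-0.52) were lowest and Klf6 (0.51) highest. In thalamic-like, inhibitory-like and microglia-like nuclei 8 of 9, 15 of 18 and 6 of 12 were lower, against 18.2%, 23.5% and 21.0% of all genes, and 0, 0 and 1 higher. The sign of the median depended on the scaling in glia, where it was -0.53 in oligodendrocyte-like and -0.45 in microglia-like nuclei but 0.07 and 0.10 against genes of like length. In the neuronal classes it was below 0 on both scales, at -0.70 in thalamic-like and -0.36 in inhibitory-like nuclei against genes of like length. With 1 library per condition, body temperature, handling, haemorrhage and library preparation cannot be told apart in the values of the 8 genes.

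**Figure D5:**
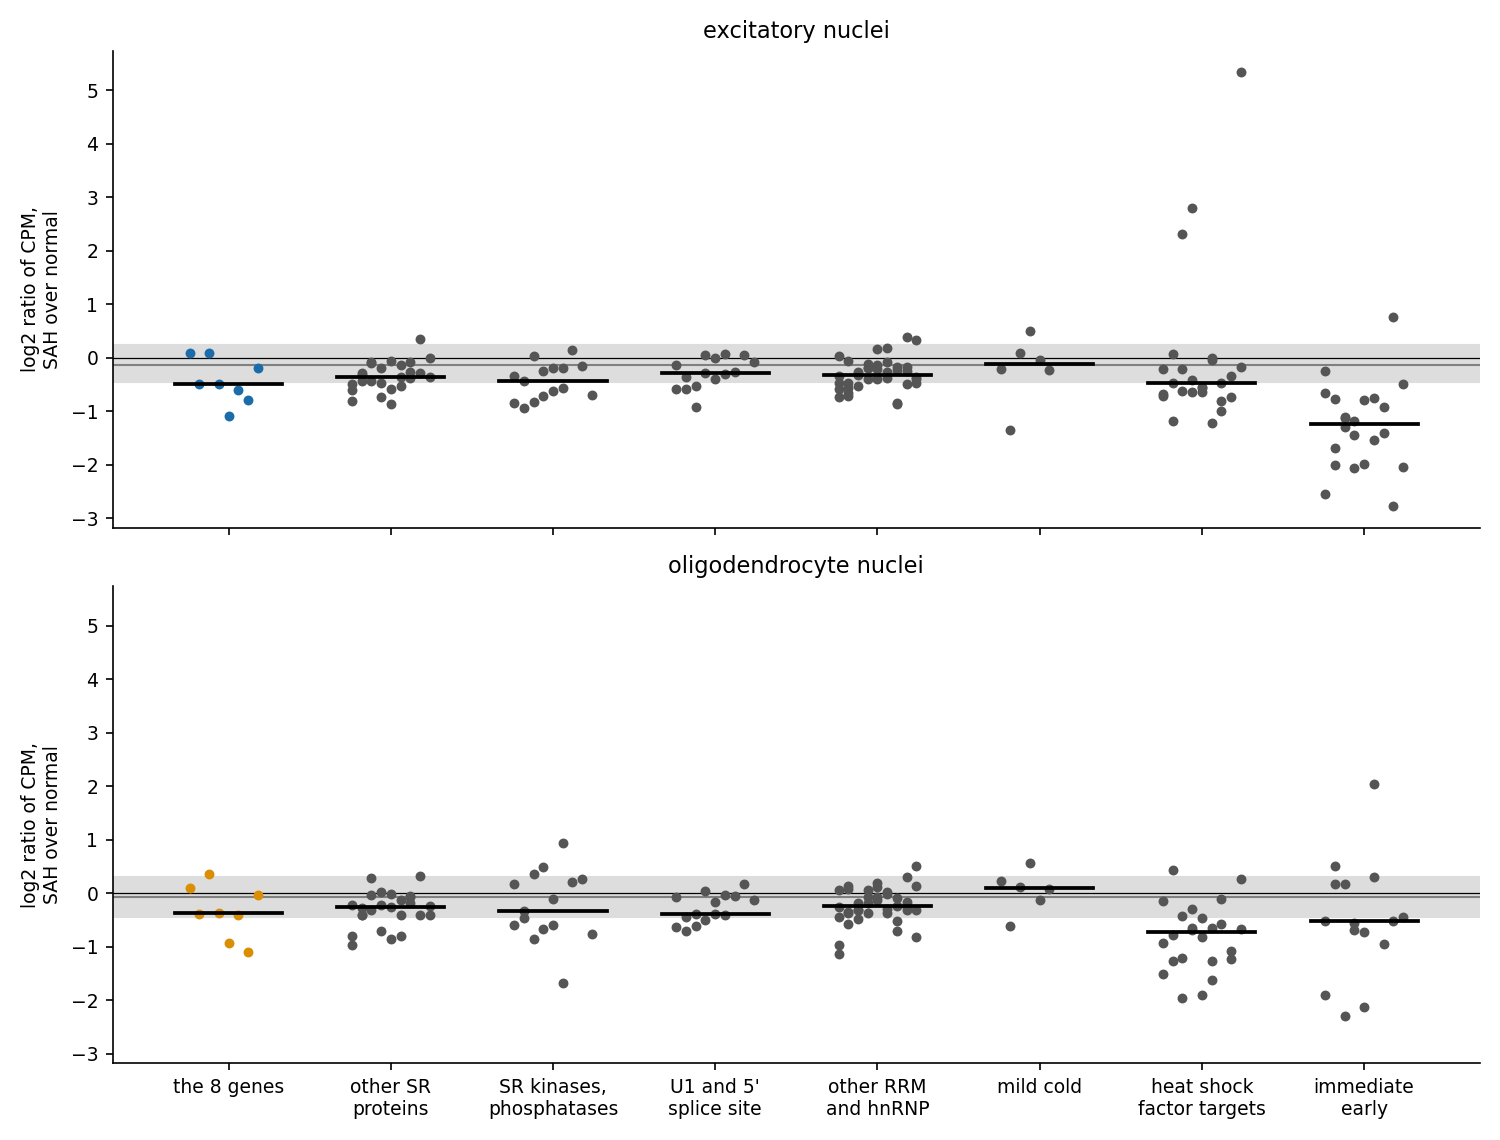
Log2 ratio of CPM, SAH over normal, of the 8 genes and of each gene with at least 50 UMIs in the 7 lists, in excitatory-like (top) and oligodendrocyte-like nuclei (bottom), with bars at list medians and the grey band as the quartiles of all genes around their median. Most immediate early genes lie far below the band in excitatory-like nuclei, 3 heat shock genes lie far above it there, and the splicing lists lie partly below it.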

How the data were processed

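Nuclei of 2 libraries (normal and SAH, each 1 pool of 3 mice) were sequenced from the 3' end of their RNA in droplets. The deposited values were raw UMI counts per gene and nucleus, made by the authors with Cell Ranger on mm10, intronic reads included. The version was 6.1.2 per the file headers and 5.0.0 per the submitters' processing notes. No other column of per-sample values was in the files.

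Kept nuclei had 300 to 7000 genes and fewer than 100000 UMIs, with haemoglobin genes below 3% and mitochondrial genes below 10% of them, following the study's methods. These limits left out 71 normal and 29 SAH nuclei. A marker counted as raised in a nucleus with a UMI of it and a share at or above its share of all UMIs. A class took nuclei with at least 3 raised markers and at least 2 times as many as the next class, thalamic markers left aside. Nuclei then became thalamic-like with at least 4 raised thalamic markers, and at least as many as excitatory ones. Those thalamic markers also had to be at least 2 times as many as the markers of any other class. The markers were listed beforehand and this gate was set after the data were seen. Nuclei at the exact cut numbered 941 and 1351 in excitatory-like, 477 and 661 in inhibitory-like, and 31 to 187 per library in the other 3 classes. Nuclei near several classes were left out as possible doublets, and Scrublet was an alternative.

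UMIs were summed per class and library. CPM had exact Poisson intervals, log2 ratios exact conditional binomial ones and shares exact binomial ones, all 95% and covering counting error only. The log2 ratio intervals were run on counts simulated under the Poisson model they assume, which cannot show how they hold for real counts. Genes with at least 50 UMIs in a class were counted at a log2 ratio of 0.5 in size. Named list genes had at least 200 UMIs and were the 2 lowest and 2 highest, of which 1 gene is not reported here. No p-value was computed. Leiden clusters (2000 variable genes, 25 components, resolution 1.2, no integration, the 8 genes left out) were named by the same markers with a factor of 1.25 over the next class, set after the clusters were seen. A cluster whose leading genes held more markers of another class than of its own was then left unnamed. Clusters 0 and 13, first named inhibitory, and 34, first named microglia, lost their names so and were not counted in the alternative by clusters. In clusters 0 and 13 the leading genes held 1 marker of another class and 0 inhibitory ones. Yet 11 and 10 inhibitory markers were raised in them, more than of any other class. By clusters, Cirbp was at -0.01 in inhibitory-like nuclei, against -0.09 by the gate. Gene lengths came from GENCODE M21 for 99.8% of genes. The members and lists were chosen with earlier results of these data known. The alternatives were clusters, other limits on nuclei, doublet removal, other scalings (among them TMM factors of edgeR), the mean over nuclei, thinning and other thresholds. Python 3.11.15, numpy 2.4.6, scipy 1.17.1, scanpy 1.11.5, leidenalg 0.10.2, R 4.3.3 and edgeR 4.0.16 were used.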

Additional observations from a re-analysis of the deposited data

Results flagged for a closer look

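The log2 ratio of Rsrp1 had opposite signs in different classes of nuclei, 0.10 in excitatory-like and 0.35 in oligodendrocyte-like nuclei and -0.48 in microglia-like nuclei. The difference was not tested over mice, since each condition was 1 library, and the oligodendrocyte-like and microglia-like values compare clusters that hardly share nuclei of both libraries.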

How the results depend on the processing

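Of 400 member ratios recomputed under 10 alternatives, 302 stayed within their counting interval and 98 moved, 34 of them when centred by gene length, 22 by thinning, 17 by centring on the median and 13 by TMM. Clk4 stayed between -1.19 and -0.75 in every class and alternative. The number of members lower in excitatory-like nuclei (3) was 5 with clusters, with mitochondrial genes and Malat1 left out, with the mean over nuclei and at a threshold of 0.25. Centred on genes of like length it was 1 in excitatory-like, thalamic-like (4 before) and inhibitory-like nuclei (5 before) and 2 in microglia-like nuclei (5 before), and 1 gene, Rsrp1, was higher in oligodendrocyte-like nuclei. At a threshold of 1 it was 1 in excitatory-like, thalamic-like, inhibitory-like and oligodendrocyte-like nuclei and 2 in microglia-like nuclei. At 0.25, 5 were lower (2 before) and 1 higher in oligodendrocyte-like nuclei. In microglia-like nuclei 3 were lower with Scrublet doublets removed, centred on the median or with TMM. With nuclei thinned, 1 gene, Cirbp, was higher in thalamic-like and in microglia-like nuclei, at 5 and 19 and at 21 and 52 nuclei with a UMI. The share of all genes lower or higher was not counted under these alternatives, so their counts cannot be set against it. No paired analysis was possible because each condition had 1 library, and for the same reason no library could be left out. Depth limits Cirbp most, with 69 to 605 UMIs per class and library.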

Other observations

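Nuclei that passed no gate, 3099 normal and 5253 SAH, gave a further set of values for the 8 genes. Clk4 was at a log2 ratio of -1.21 (-1.27 to -1.14) there, Srsf7 at -0.88 (-0.94 to -0.82), Srsf5 at -0.72 (-0.78 to -0.67), Rbm3 at -0.64 (-0.75 to -0.54) and Clk1 at -0.59 (-0.65 to -0.53). Luc7l2 was at -0.28 (-0.31 to -0.25) and Rsrp1 at 0.08 (0.04 to 0.12). Cirbp, whose interval held 0 in all 5 classes, was at -0.35 (-0.51 to -0.18), with 491 and 736 UMIs. These nuclei are a mixture of cell types whose makeup may differ between the libraries.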
